A study of Homo sapiens with 12 samples.

Results

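The 50 genes described here act in mitosis and in the checkpoint that guards it. They were listed by name as kinases, checkpoint and kinetochore proteins, chromosomal passengers, spindle motors, condensin subunits and their transcription factor FOXM1, and a gene's probes were those whose transcript identifier mapped to its symbol. All 50 were on the array and all 50 passed the filter on dim probes, among 18262 genes that passed of 20708 on the array. The cells were MDA-MB-231, an established triple-negative breast cancer line, and messenger RNA was measured on 12 single-colour exon arrays, 3 for each of 4 groups. Every group had received an oligonucleotide of each kind. In cntrl both were control oligonucleotides, in mimic145 the cells carried Pre-miR-145-5p at 5 nM with the control DsiRNA NC1, in sirnaAGO2 they carried a DsiRNA against AGO2 at 500 pM with the control miRNA oligonucleotide, and in sirnaAGO2+mimic145 they carried Pre-miR-145-5p and the AGO2 DsiRNA. Silencing lasted 72 h. The comparisons address how the mitotic genes differ when miR-145-5p is supplied, when AGO2 is silenced, and whether the first difference changes with the second.

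A dividing cell enters mitosis when cyclin B and CDK1 become active, and it separates its chromosomes only after the spindle assembly checkpoint has been satisfied. While kinetochores lack microtubules, MAD2, BUBR1 and BUB3 hold CDC20, and once CDC20 is free the anaphase-promoting complex marks securin and cyclin B for destruction. The messenger RNAs of this machinery are periodic. A repressor complex called DREAM keeps many of them low in resting cells, and B-MYB and FOXM1 drive them in G2 and mitosis. Promoters of many of these genes carry elements named CHR and CCAAT. miR-145-5p is a microRNA studied as a tumour suppressor in breast cancer, and AGO2 is the Argonaute protein that can cleave the transcripts to which a microRNA guides it.

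The sequence that was added to the mimic groups is shown first, since each mimic comparison is a comparison with and without it. The mature strand of miR-145-5p has 23 bases and lies at chr5:149430661-149430683 on the plus strand of GRCh38.p14 in RefSeq, and its seed, bases 2 to 8, is in capitals.
miR-145-5p: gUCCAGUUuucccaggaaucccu

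Promoter windows were available in the RefSeq table for 42 of the 50 genes, with 49 entries in all, each running from 250 bases before the transcription start to 50 after it on GRCh38.p14. TTK, BUB3, TPX2, UBE2C, AURKA, CENPM, FOXM1 and BIRC5 had none. On either strand, the CHR letters TTTGAA or TTCGAA were in 33 of the 49 windows and in 13.7% of 22199 windows of protein-coding genes, and the letters CCAAT were in 32 of the 49 and in 34.7% of all. Both were in 23 of the 49 windows, against 5.48% of all. The 120 bases before the start are printed for the 5 genes that were called higher with the mimic and have an entry. Capitals mark the CHR or CCAAT letters on either strand.
PTTG1, chr5:160421735-160421854, plus strand: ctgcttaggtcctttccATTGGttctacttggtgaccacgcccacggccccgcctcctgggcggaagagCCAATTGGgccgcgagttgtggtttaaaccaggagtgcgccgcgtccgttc
SPC25, chr2:168890431-168890550, minus strand: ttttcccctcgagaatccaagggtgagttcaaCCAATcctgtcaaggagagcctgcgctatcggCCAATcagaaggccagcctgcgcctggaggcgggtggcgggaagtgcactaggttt
CENPA, chr2:26785936-26786055, plus strand: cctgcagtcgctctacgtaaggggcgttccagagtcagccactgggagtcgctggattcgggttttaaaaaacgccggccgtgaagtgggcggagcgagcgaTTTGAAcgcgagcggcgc
KIF14, chr1:200620752-200620871, minus strand: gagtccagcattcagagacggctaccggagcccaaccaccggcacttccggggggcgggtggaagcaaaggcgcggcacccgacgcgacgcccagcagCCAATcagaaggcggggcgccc
CDC20, chr1:43358861-43358980, plus strand: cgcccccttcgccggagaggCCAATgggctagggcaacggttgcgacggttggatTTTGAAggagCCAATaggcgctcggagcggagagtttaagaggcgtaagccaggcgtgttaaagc

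CDC20 held a CHR 65 bases before the start with a CCAAT on each side of it, at 100 and 55 bases. CENPA held a CHR 18 bases before its start and no CCAAT in the printed stretch. PTTG1, SPC25 and KIF14 held CCAAT but no CHR there, and in PTTG1 a pair of CCAAT matches on opposite strands overlapped, at 51 and 48 bases. PTTG1 has 2 entries in the table, of which the first is printed. The counts above use the full windows. There SPC25 held 2 CHR matches, KIF14 held 1 and CENPA held 2 CCAAT matches, while the printed PTTG1 entry held no CHR. A match is a description of the letters and was not related to any level.

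Across the arrays, 60.5% to 77.3% of spots other than controls were well above background, and none of these spots was saturated. Each of 6 slides carried 2 arrays with 1 replicate number, with the mimic sample always at the second position, so that the mimic and the position on the slide cannot be told apart, and no slide held silenced and unsilenced cells together. The MDA-MB-231 markers VIM, CD44, AXL, MSN, CAV1 and FN1 were each above background on most of their probes. Of 6 markers low in this line, PGR had no probe above background on all arrays, while EPCAM, KRT19 and GATA3 had most of theirs. Of 9 markers of blood, vessel and connective tissue cells, COL1A1 had most of its probes above background on all arrays, and PECAM1 and DCN had no probe above background on all of them. AGO2, the targeted gene, lay at 9.21, 9.14 and 9.01 (log2 level, replicates 1 to 3) in cntrl and at 8.35, 8.44 and 8.42 in sirnaAGO2, and at 9.44, 9.36 and 9.39 in mimic145 and 8.27, 8.35 and 8.41 in sirnaAGO2+mimic145. It was lower on every silenced array, at -0.71 ± 0.08 (log2 difference ± SE, adjusted p = 0.00494) without the mimic and at -1.06 ± 0.08 (adjusted p = 0.000792) with it. In unsilenced cells the AGO2 transcript was higher with the mimic, by 0.28 ± 0.08 (adjusted p = 0.0299). In silenced cells the AGO2 difference with the mimic was -0.06 ± 0.08 (adjusted p = 0.607).

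The mitotic genes were measured on 898 probes, of which 850 were kept and 743 were well above background on all arrays. A gene had between 4 kept probes, for BIRC5, and 47, for CENPE, with a median of 17 against 5 over all genes. The level of a gene is the mean log2 signal of its kept probes, and levels of different genes are not compared, since probes differ in brightness. On the array of mimic145 replicate 3 nearly all of these genes lay low, and the main values that rest on it are also given without it.

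**Figure D1:**
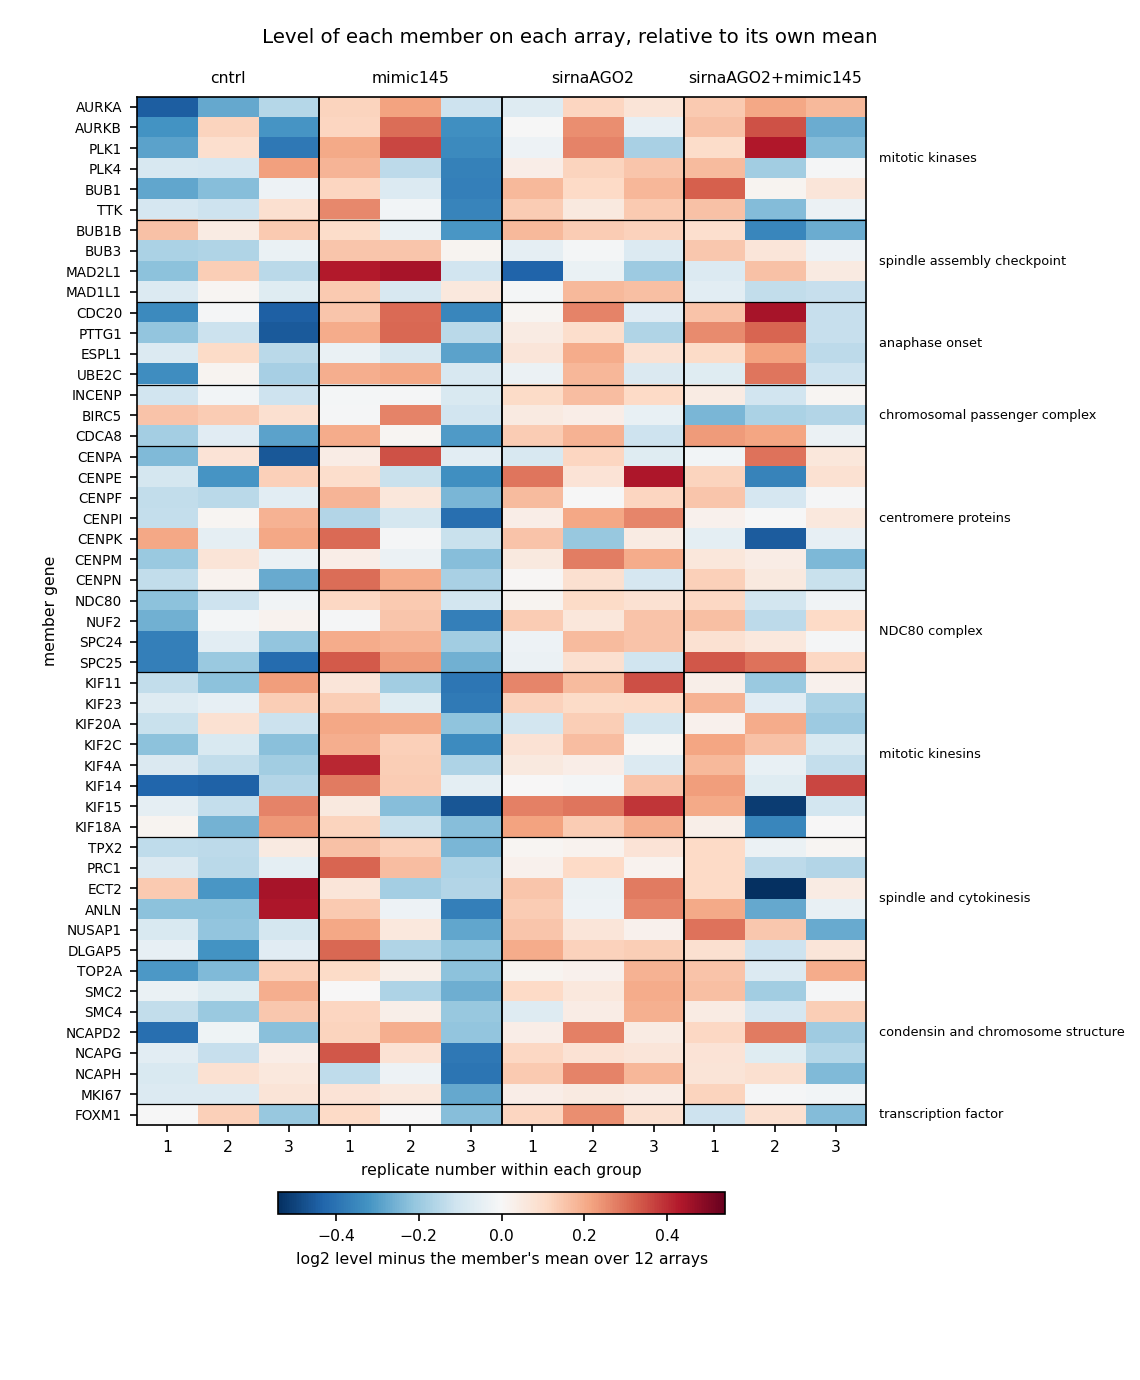
Log2 level of each of the 50 genes on each of the 12 arrays, minus the gene's own mean over the arrays (colour scale), with genes in rows grouped by role and arrays in columns grouped by treatment and ordered by replicate number. A gene with 2 roles stands under the first. On mimic145 replicate 3, 2 of the 50 genes lie above their own mean, and on cntrl replicate 1, 5 do.

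In unsilenced cells, 6 of the 50 genes rose with the mimic and none fell: PTTG1, SPC25, CENPA, KIF14, AURKA and CDC20, by 1.23-fold to 1.38-fold. A call here is an adjusted p under 0.05 in limma with replicates as a block, adjusted over all 18262 genes. By that rule 22.6% of all genes were called, and 11.6% of all genes were called higher. With all 12 arrays the 6 of 50 genes is near that share. The count was between 1 and 11 when 1 array was left out, as given below. Counting both directions, 32 of the 50 genes had higher means with the mimic, with a median difference of 0.08 on the log2 scale against 0.01 over all genes. In RNA of a whole culture, a change in the number of cells in mitosis and a change in the transcript per cell cannot be told apart.

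PTTG1, securin, which holds separase inactive until anaphase, lay at 12.48, 12.58 and 12.24 in cntrl and at 12.90, 13.01 and 12.55 in mimic145. It rose by 0.38 ± 0.06 (adjusted p = 0.00349), in all 3 replicate pairs, although the lowest mimic145 array was below the highest cntrl array. CDC20, the activator of the anaphase-promoting complex that the checkpoint restrains, lay at 10.49, 10.83 and 10.40 in cntrl and at 10.99, 11.15 and 10.49 in mimic145. The groups overlapped, and within pairs it was higher 3 times of 3, by 0.30 ± 0.09 (adjusted p = 0.0402). The other anaphase genes were UBE2C, the ubiquitin-conjugating enzyme of that complex, at 0.27 ± 0.09 (adjusted p = 0.0562), and ESPL1, separase, at -0.10 ± 0.08 (adjusted p = 0.385).

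AURKA, the kinase of centrosome maturation and spindle assembly, lay at 9.59, 9.76 and 9.88 in cntrl and at 10.15, 10.25 and 9.92 in mimic145, without overlap. It rose by 0.37 ± 0.10 (adjusted p = 0.0262), but the replicate 3 pair differed by 0.04 where the others differed by 0.56 and 0.49. Of the 6 mitotic kinases, 5 had higher means, and PLK1, which acts from mitotic entry to cytokinesis, was at 0.27 ± 0.09 (adjusted p = 0.0612). AURKB, the kinase of the chromosomal passenger complex, was at 0.20 ± 0.10 (adjusted p = 0.187), and PLK4, which starts centriole duplication, was the 1 kinase with a lower mean, at -0.12 ± 0.14 (adjusted p = 0.59).

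SPC25, a subunit of the NDC80 complex that couples kinetochores to microtubules, lay at 9.66, 9.83 and 9.62 in cntrl and at 10.36, 10.26 and 9.77 in mimic145. It rose by 0.43 ± 0.10 (adjusted p = 0.0165), with all 7 of its kept probes higher. All 4 subunits had higher means, with SPC24 at 0.28, NDC80 at 0.17 and NUF2 at 0.01, and SPC25 was the 1 that was called. CENPA, the histone H3 variant that marks the centromere, lay at 8.79, 9.10 and 8.57 in cntrl and at 9.07, 9.37 and 8.97 in mimic145, and it rose by 0.32 ± 0.08 (adjusted p = 0.0211). It was the called gene with the largest difference in the replicate 3 pair, 0.40. The other centromere proteins spread on both sides of 0, from CENPN at 0.24 to CENPI at -0.25.

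KIF14, a kinesin of the central spindle that is needed to finish cytokinesis, had the largest rise, 0.46 ± 0.12 (adjusted p = 0.0244). It lay at 7.997, 7.988 and 8.268 in cntrl and at 8.71, 8.56 and 8.37 in mimic145, without overlap, and all 25 of its kept probes were higher. The 9 kinesins had a median difference of -0.02, with 4 higher and 5 lower means, and the lowest was KIF15, a motor that works beside KIF11 to keep the spindle poles apart, at -0.24 ± 0.17 (adjusted p = 0.339). CENPI, an inner kinetochore protein, had the lowest mean difference of the 50 genes, -0.25 ± 0.11 (adjusted p = 0.138). It lay at 8.70, 8.84 and 9.02 in cntrl and at 8.67, 8.73 and 8.42 in mimic145, and the pairs differed by -0.03, -0.11 and -0.60.

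The spindle assembly checkpoint proteins had a median difference of 0.08 and no call. MAD2L1, the MAD2 protein that seizes CDC20, was at 0.33 ± 0.13 (adjusted p = 0.0988), BUB3 at 0.23 ± 0.07 (adjusted p = 0.0567) and BUB1B, the BUBR1 protein of the same inhibitory complex, at -0.20 ± 0.10 (adjusted p = 0.21). The condensin and chromosome group ranged from -0.21 for NCAPH to 0.25 for NCAPD2, the spindle and cytokinesis group from -0.18 for ECT2 to 0.20 for PRC1, and FOXM1 was at -0.01, with none called. At an unadjusted p under 0.05 there were 15 of the 50 genes, 14 higher and 1 lower, against 35.4% of all genes. Groups did not overlap for 3 genes, AURKA, BUB3 and KIF14, all higher, where 14.9% of all genes were higher without overlap and 13.5% lower.

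**Figure D2:**
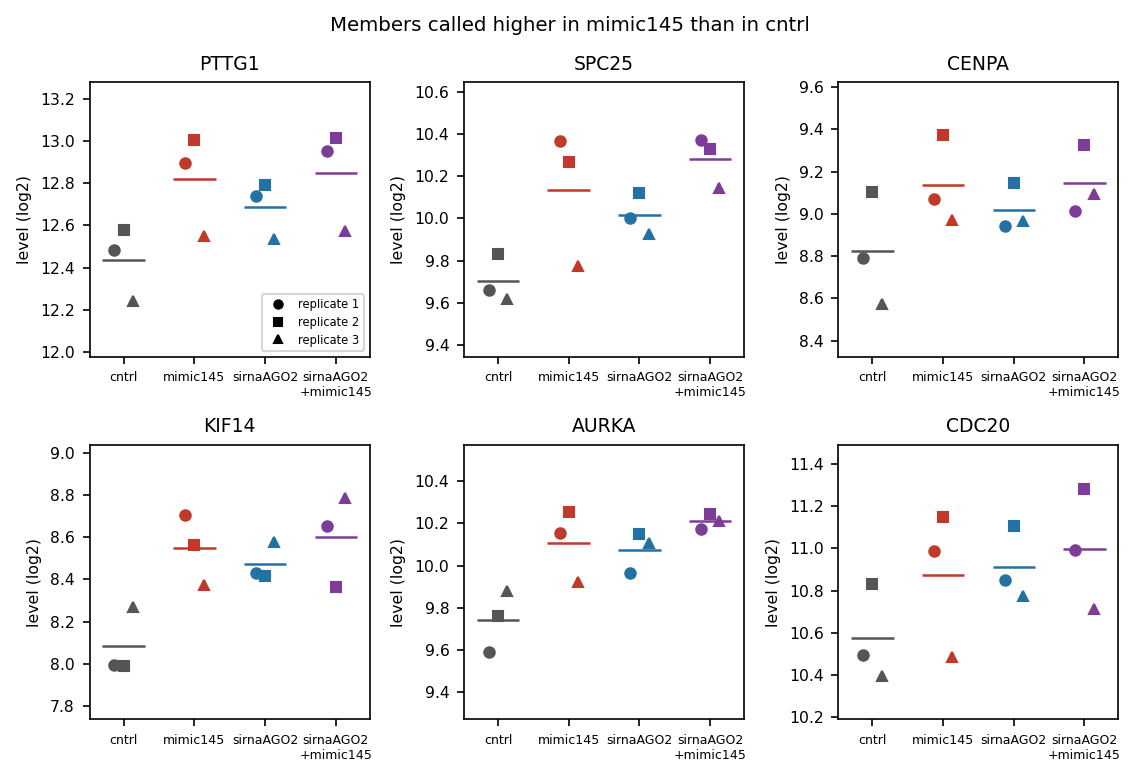
Log2 levels of the 6 genes called higher with the mimic in unsilenced cells, 1 panel a gene, for the 4 groups. Points are arrays, shapes are replicate numbers and bars are group means. In 4 of the 6 panels the triangle of mimic145, replicate 3, lies within the range of cntrl.

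The replicate pairs differed for these genes. In pair 1, 45 of the 50 genes were higher with the mimic, with a median difference of 0.32. In pair 2, 39 were higher and the median was 0.18, and in pair 3, 16 were higher and the median was -0.17. The mean of the 3 medians was 0.11 ± 0.25 (SD, n = 3). Over all genes the pair medians were -0.02, 0.00 and 0.08.

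The array of mimic145 replicate 3 stood apart for these genes. On it 2 of the 50 were above their own mean over the 12 arrays, with a median deviation of -0.24. It also had the largest share of spots well above background, 77.3%. On cntrl replicate 1, 5 of the 50 were above their mean, with a median deviation of -0.13. Without the mimic145 replicate 3 array, 11 genes were called higher and the median difference was 0.21. In that fit 17% of all genes were called, in both directions together. The array was left out because these same genes lay low on it. The 11 calls therefore cannot show whether the 50 genes were called more often than other genes. The 6 genes above were among the 11, at 0.63 for KIF14, 0.56 for SPC25, 0.49 for AURKA, 0.41 for PTTG1, 0.39 for CDC20 and 0.34 for CENPA, and CENPI was at -0.10. Without mimic145 replicate 1 it was 1 gene and 0.01. Without cntrl replicate 1 it was 2 genes, and without mimic145 replicate 2 or cntrl replicate 2 it was 1 and 3. What sets these arrays apart was not tested. When all 4 arrays of replicate 1 or of replicate 2 were left out, none of the 50 genes was called, and without the replicate block KIF14 alone was called.

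**Figure D3:**
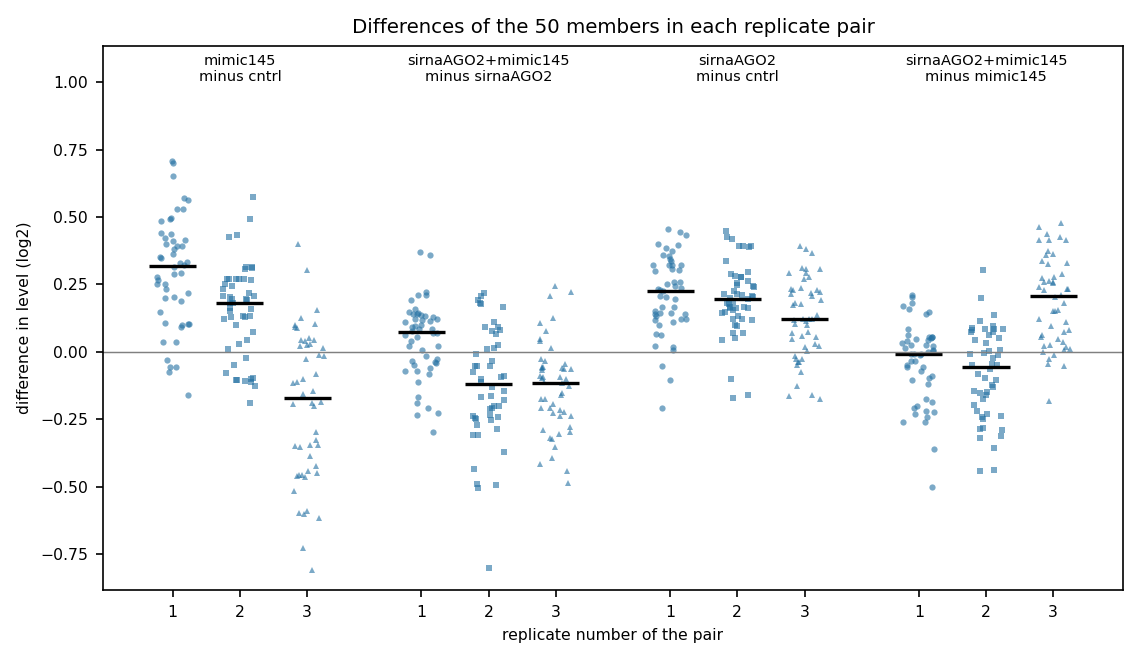
Log2 difference of each of the 50 genes within each replicate pair, for the 4 comparisons of pairs of groups. Points are genes and black bars are medians over the 50. The median is above 0 in all 3 pairs for sirnaAGO2 minus cntrl, at 0.23, 0.20 and 0.12, and changes sign between pairs in the other comparisons.

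In AGO2-silenced cells, none of the 50 genes was called with the mimic, where 7.27% of all genes were. At an unadjusted p under 0.05 there were 11 genes, 2 higher and 9 lower, against 28.8% of all genes. The mean was higher for 16 genes and lower for 34, with a median of -0.06 against 0.02 over all genes. The pair medians were 0.07, -0.12 and -0.11. All 6 spindle and cytokinesis genes and 6 of 7 condensin and chromosome genes had lower means, and 3 of the 4 anaphase genes had higher ones.

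KIF15 had the lowest difference, -0.45 ± 0.17 (adjusted p = 0.121), with all 30 of its kept probes lower. It lay at 8.01, 8.03 and 8.12 in sirnaAGO2 and at 7.94, 7.22 and 7.64 in sirnaAGO2+mimic145, and in the unsilenced groups at 7.69, 7.61 and 8.002 in cntrl and 7.79, 7.51 and 7.27 in mimic145. The silenced groups did not overlap, and the pairs differed by -0.07, -0.80 and -0.49. BUB1B had the smallest adjusted p, 0.0864, at -0.32 ± 0.10, and FOXM1, which activates G2 and mitotic genes, was next with -0.24 ± 0.08 (adjusted p = 0.088). CENPE and KIF11, both kinesins, were at -0.32 ± 0.13 and -0.31 ± 0.13.

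SPC25 had the largest positive difference in the silenced cells, 0.27 ± 0.10 (adjusted p = 0.13), and was higher in 3 of 3 pairs. It lay at 10.00, 10.12 and 9.92 in sirnaAGO2 and at 10.37, 10.33 and 10.15 in sirnaAGO2+mimic145, without overlap. MAD2L1 had nearly the same mean difference, 0.27 ± 0.13 (adjusted p = 0.213), and PTTG1 was at 0.16 ± 0.06 (adjusted p = 0.149). PTTG1 lay at 12.74, 12.79 and 12.53 in sirnaAGO2 and at 12.95, 13.01 and 12.57 in sirnaAGO2+mimic145, so that the groups overlapped while each pair was higher. The remaining called genes of the unsilenced cells were at 0.14 for AURKA, 0.13 for CENPA and KIF14 and 0.09 for CDC20.

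Groups without overlap were 2 higher, AURKA and SPC25, against 13.9% of all genes, and 10 lower, 20% of the 50, against 10.2% of all genes. The genes share the same arrays and are not separate observations. The 10 were BUB1B and MAD1L1 of the checkpoint, INCENP and BIRC5 of the passenger complex, the kinesins KIF11, KIF15 and KIF18A, NCAPH of condensin, DLGAP5 of the spindle, and FOXM1.

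**Figure D4:**
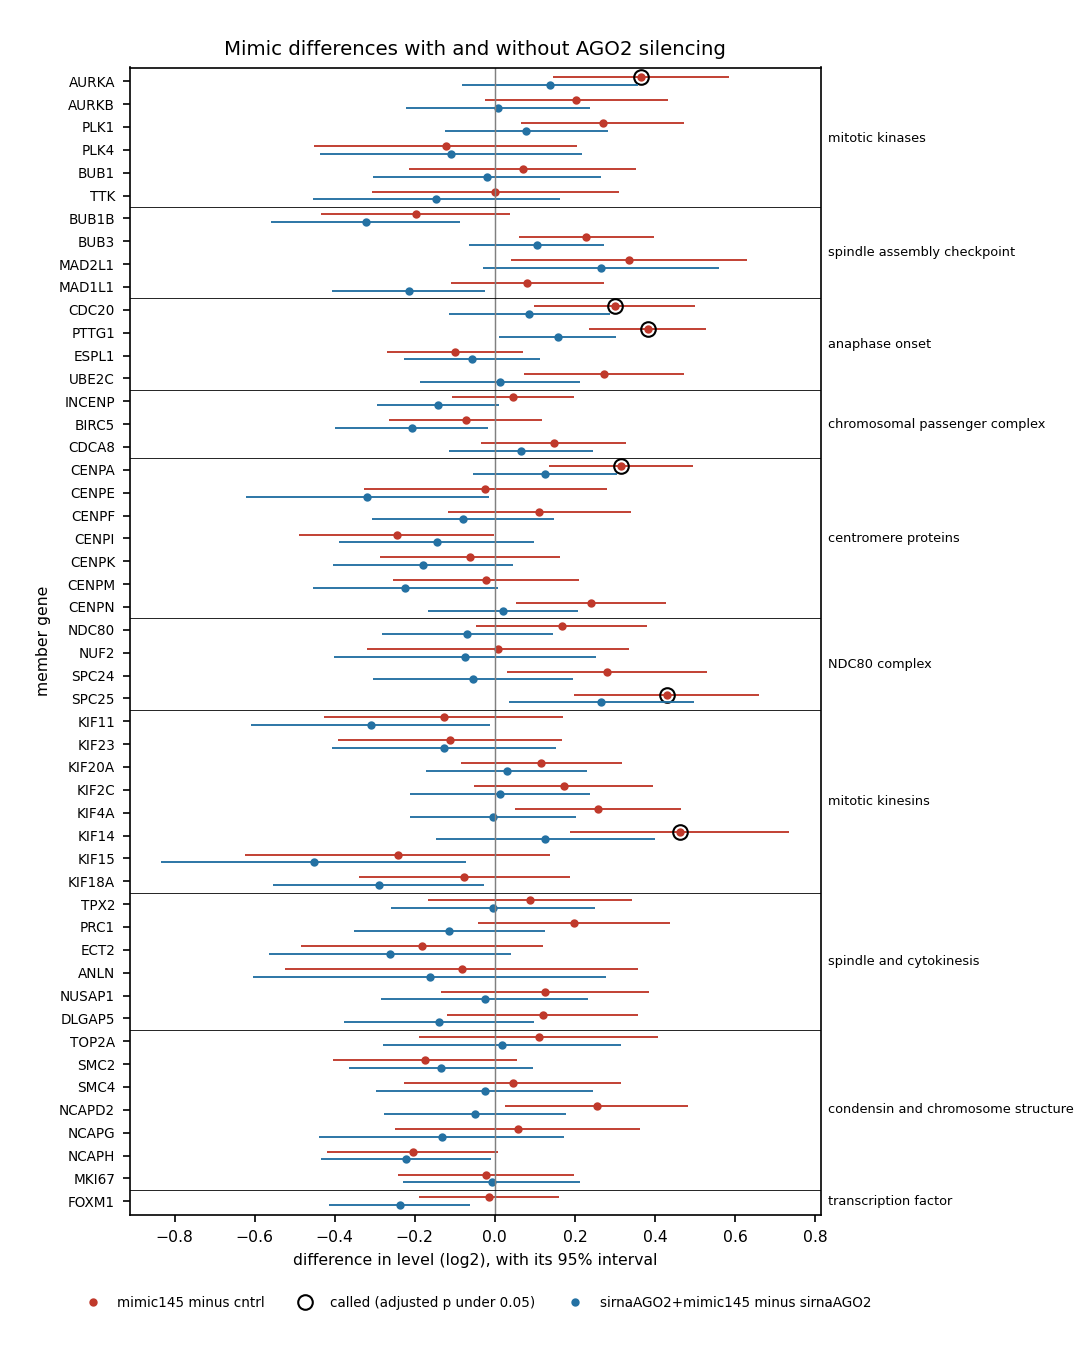
Log2 difference with the mimic in unsilenced cells (red) and in AGO2-silenced cells (blue) for each of the 50 genes, grouped by role. Points are estimates from limma, lines are their 95% intervals and black circles mark called genes. The 6 circled genes lie between 0.30 and 0.46, and 45 of the 50 blue points lie to the left of the red point of the same gene.

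The difference between the mimic effects, silenced minus unsilenced, was tested for each gene, and none of the 50 was called, where 0.0110% of all genes were. At an unadjusted p under 0.05 there were 2, both lower, MAD1L1 at -0.30 ± 0.12 and PTTG1 at -0.22 ± 0.09, against 16.8% of all genes, and their adjusted p were 0.264 and 0.267. The estimate was below 0 for 45 of the 50 genes, with a median of -0.17 against 0.02 over all genes, and was the lowest for KIF14 at -0.34 ± 0.17 (adjusted p = 0.355). CENPI had the largest positive estimate, 0.10 ± 0.15 (adjusted p = 0.759). The same estimate is the silencing difference with the mimic minus that without it. By pair, 46, 49 and 19 of the 50 genes were lower, with medians of -0.28, -0.25 and 0.07. Of the fits that leave out 1 array, the median was nearest 0 without cntrl replicate 1, at -0.09. This estimate shares the cntrl arrays with the mimic difference in unsilenced cells and with the silencing difference without the mimic. INCENP, the scaffold of the passenger complex, was the 1 gene that was higher in all 3 unsilenced pairs, by 0.09, 0.01 and 0.03, and lower in all 3 silenced pairs, at -0.06, -0.27 and -0.10, and its difference was -0.19 ± 0.10 (adjusted p = 0.357). It was picked out after its values were seen.

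With AGO2 silencing alone, 47 of the 50 genes had higher means in sirnaAGO2 than in cntrl, with a median difference of 0.19, while 42.6% of all genes were higher, with a median of -0.03. None of the 50 was called, where 2.58% of all genes were. At an unadjusted p under 0.05 there were 18 genes, all higher, against 19.0% of all genes, and the smallest adjusted p was 0.0781, for PTTG1. By pair, 47, 47 and 39 of the 50 were higher, with medians of 0.23, 0.20 and 0.12, a mean of 0.18 ± 0.05 (SD, n = 3). The arrays compared were on different slides in every pair, and with the slide as a random block none of the 50 was called either.

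By role, the means were higher for 6 of 6 kinases, 4 of 4 anaphase genes, 4 of 4 NDC80 subunits, 9 of 9 kinesins, 6 of 6 spindle and cytokinesis genes and 7 of 7 condensin and chromosome genes. The 3 genes with lower means were MAD2L1, BIRC5 and CENPK. KIF14 had the largest difference, 0.39 ± 0.12 (adjusted p = 0.13), at 8.43, 8.41 and 8.58 in sirnaAGO2, with all 25 of its kept probes higher than in cntrl. CENPE was at 0.36 ± 0.13 with all 47 of its probes higher, CDC20 at 0.34 ± 0.09 (adjusted p = 0.0851), NCAPD2 at 0.34 ± 0.10, BUB1 at 0.33 ± 0.13 and AURKA at 0.33 ± 0.10. PTTG1 was at 0.25 ± 0.06, SPC25 at 0.31 ± 0.10 and CENPA at 0.20 ± 0.08.

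CDC20 lay at 10.85, 11.11 and 10.78 in sirnaAGO2 and at 10.99, 11.28 and 10.72 in sirnaAGO2+mimic145, AURKA at 9.96, 10.15 and 10.10 and at 10.18, 10.24 and 10.21, and CENPA at 8.94, 9.15 and 8.97 and at 9.01, 9.33 and 9.09. For these genes the lowest group mean was cntrl. MAD2L1 had the lowest difference with silencing, -0.14 ± 0.13 (adjusted p = 0.592). It lay at 9.13, 9.49 and 9.21 in cntrl, 9.78, 9.80 and 9.25 in mimic145, 8.92, 9.32 and 9.16 in sirnaAGO2 and 9.28, 9.51 and 9.40 in sirnaAGO2+mimic145, so that both silencing groups overlapped their counterparts.

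In sirnaAGO2 and cntrl, 18 genes did not overlap and were higher, 36% of the 50, against 8.49% of all genes. BIRC5 alone was lower without overlap, against 10.6%. The genes were measured on the same arrays, and on cntrl replicate 1 only 5 of the 50 lay above their own mean, so they are not separate observations. The 18 were AURKA and BUB1 among the kinases, INCENP, CENPF, the 4 subunits NDC80, NUF2, SPC24 and SPC25, the kinesins KIF2C, KIF4A, KIF14 and KIF15, PRC1, NUSAP1 and DLGAP5 of the spindle, and NCAPD2, NCAPG and NCAPH of condensin. The largest pair differences among the 50 genes were 0.45 in BUB1, in pair 1, and 0.45 in DLGAP5, in pair 2. Leaving out 1 array moved the median difference between 0.12, without cntrl replicate 1, and 0.26, without cntrl replicate 3.

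With the mimic present, 33 of the 50 genes had higher means in sirnaAGO2+mimic145 than in mimic145, with a median of 0.03 against 0.00 over all genes, and none was called, where 4.30% of all genes were. At an unadjusted p under 0.05 there were 4, of which CENPI and ESPL1 were higher and BIRC5 and CENPK lower, against 21.5% of all genes. Of the pairs, 24, 18 and 44 of the 50 genes were higher. The pair with 44 is the one that holds mimic145 replicate 3, and without that array the median was -0.08, with CENPI at 0.10 and BIRC5 at -0.31.

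BIRC5, survivin, the passenger protein that targets AURKB to the centromere, had the lowest difference, -0.24 ± 0.08 (adjusted p = 0.138), on 4 kept probes that were all lower. It lay at 10.85, 10.83 and 10.79 in cntrl, 10.69, 10.97 and 10.59 in mimic145, 10.75, 10.73 and 10.66 in sirnaAGO2 and 10.45, 10.53 and 10.54 in sirnaAGO2+mimic145. Every array with both treatments was below every other BIRC5 array. CENPI had the largest difference, 0.25 ± 0.11 (adjusted p = 0.226), at 8.87, 9.04 and 9.10 in sirnaAGO2 and 8.85, 8.83 and 8.89 in sirnaAGO2+mimic145. These were the 2 genes without overlap between sirnaAGO2+mimic145 and mimic145, CENPI higher, against 6.23% of all genes, and BIRC5 lower, against 8.57%. KIF14 lay at 8.65, 8.36 and 8.79 in sirnaAGO2+mimic145, within 0.05 ± 0.12 of mimic145 in the mean.

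**Figure D5:**
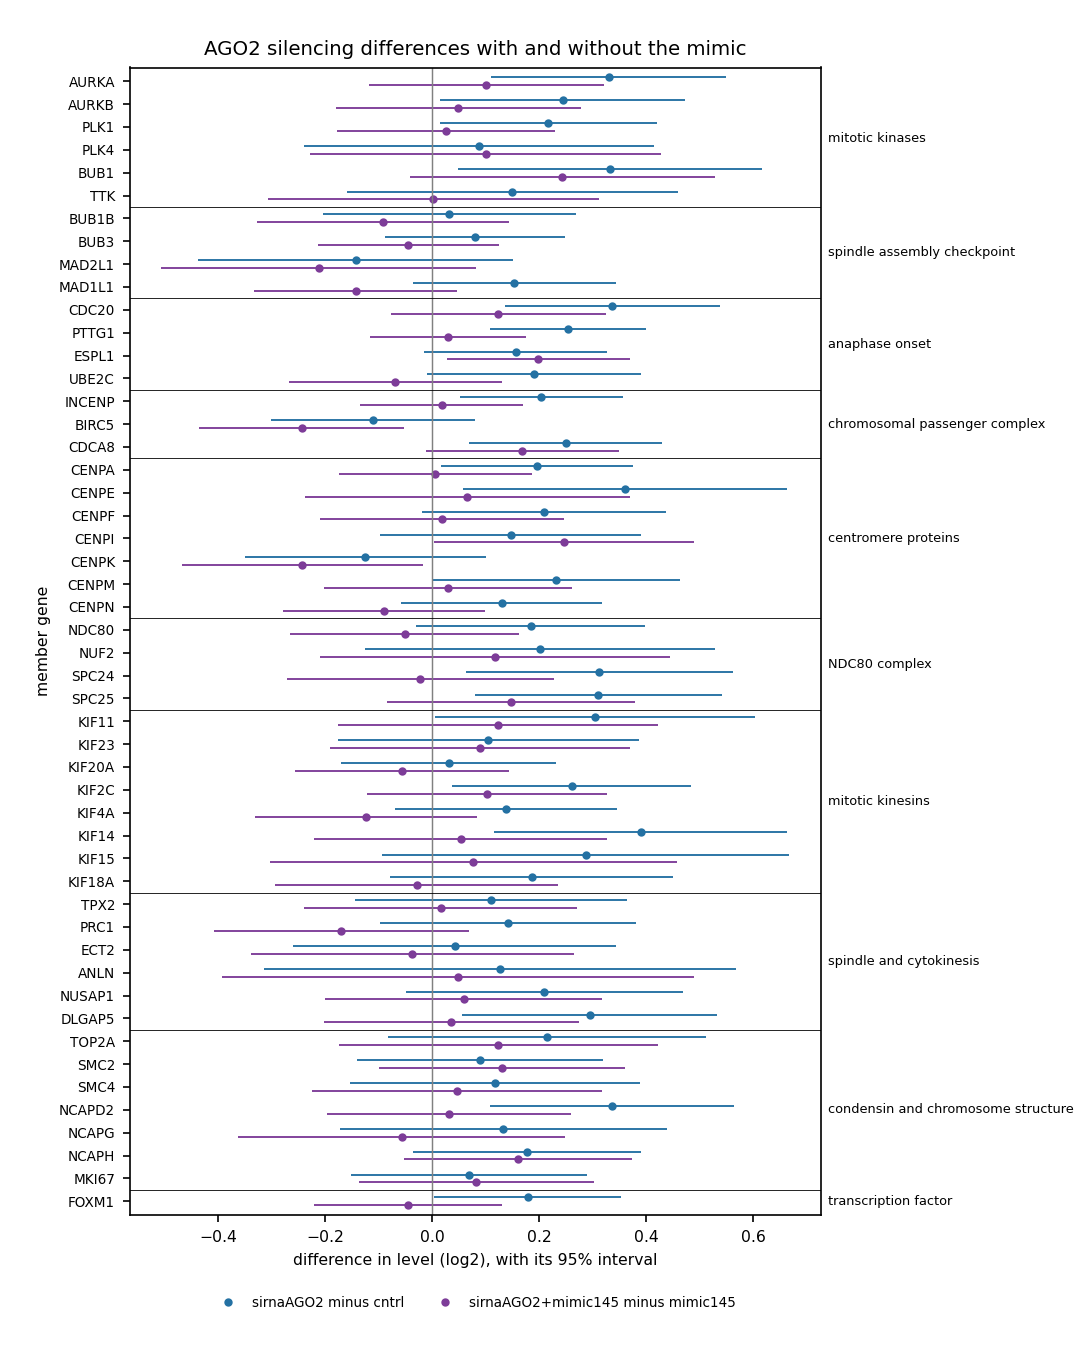
Log2 difference with AGO2 silencing in cells without the mimic (blue) and with it (purple) for each of the 50 genes, grouped by role. Points are estimates from limma with their 95% intervals. No gene was called. The blue points lie above 0 for 47 genes and the purple points for 33.

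The number of kept probes went with the mimic difference among the 50 genes. The 15 genes with at most 10 kept probes had a median difference of 0.27 in unsilenced cells, 12 of 15 higher, and the 35 with more had a median of 0.04, 20 of 35 higher. Spearman's rho between kept probes and the difference was -0.44 over the 50 genes and -0.02 over all 18262 genes, and in silenced cells it was -0.37 and -0.27. By pair the rho over the 50 was -0.23, -0.26 and -0.53. The points share the same 12 arrays, and the part of probe number in the difference was not tested. Of the 6 called genes, KIF14 has 25 kept probes and the others have 5 to 10.

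Outside the 50 genes, 136 genes of the same cell cycle pathways were described from 10 lists. With the mimic in unsilenced cells 11 of the 136 rose and 19 fell, with a median of -0.04, where 11.6% of all genes rose and 11.0% fell. Without mimic145 replicate 3, 11 rose and 10 fell, and the median was 0.01. In silenced cells 1 rose and 4 fell, against 4.24% and 3.03% of all genes, and 32 of the 136 had higher means. With silencing 3 rose and 1 fell, against 0.893% and 1.69%. The means with silencing were higher for 109 of the 136, with a median of 0.12, among them 24 of 26 replication genes, 10 of 10 centrosome genes and 11 of 11 genes of DREAM and its counterpart. A shift to higher means with silencing was also measured outside the 50 genes. With silencing in the presence of the mimic 3 rose and 4 fell, against 1.86% and 2.44%. None was called in the difference of the mimic effects.

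Of the 12 mitotic cyclins, CDK1 and its regulators, none was called with the mimic in either arm. CCNA2, cyclin A2, rose by 0.60 ± 0.12 (adjusted p = 0.0272) in sirnaAGO2+mimic145 relative to mimic145. Its arrays lay at 10.66, 10.76 and 10.15 in mimic145 and at 11.25, 11.27 and 10.84 in sirnaAGO2+mimic145, without overlap. Without mimic145 replicate 3, none of the 12 was called in this comparison.

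Among 17 subunits and partners of the anaphase-promoting complex, the ligase that CDC20 activates, 3 rose and 3 fell with the mimic. CDC26 fell by 0.97 ± 0.14 (adjusted p = 0.00155), from 10.11, 10.27 and 10.20 in cntrl to 9.38, 8.80 and 9.49 in mimic145. CDC27 was lower, at -0.44 ± 0.09, and ANAPC7 and ANAPC10 were higher by 0.31 ± 0.06 and 0.29 ± 0.07. In sirnaAGO2+mimic145 relative to mimic145, CDC26 was higher by 0.71 ± 0.14 (adjusted p = 0.027) and CDC23 lower, at -0.58 ± 0.11 (adjusted p = 0.0257).

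Of 28 further kinetochore and centromere proteins, MIS12 rose by 0.53 ± 0.10, and CENPQ and CENPU were among those that fell, with differences of -0.73 ± 0.11 and -0.47 ± 0.13. Without mimic145 replicate 3, CENPQ was at -0.65 and called, and CENPU was at -0.39 (adjusted p = 0.113). CENPQ, of the inner kinetochore, was also called lower in silenced cells, at -0.48 ± 0.11 (adjusted p = 0.0348). OIP5, which helps to load CENPA, rose with silencing by 0.51 ± 0.09 (adjusted p = 0.0232), and ZW10, which links the checkpoint to dynein, was lower in sirnaAGO2+mimic145 than in mimic145, at -0.54 ± 0.09 (adjusted p = 0.0196). Of 11 genes of cohesin, which holds sister chromatids until separase cuts it, SMC3, SMC1A and ESCO2 fell with the mimic, with differences of -0.43 ± 0.07, -0.38 ± 0.09 and -0.78 ± 0.21. The ESCO2 pairs differed by -0.21, -0.68 and -1.44. Without mimic145 replicate 3, SMC3 was at -0.36 and called, SMC1A at -0.31 (adjusted p = 0.0562) and ESCO2 at -0.58 (adjusted p = 0.115). In silenced cells all 11 had lower means with the mimic and none was called.

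Of the 11 subunits and partners of DREAM and its activating counterpart, E2F5 and LIN37 rose with the mimic, by 0.57 ± 0.08 and 0.39 ± 0.10. E2F5, a repressor E2F, also rose with silencing, by 0.78 ± 0.08 (adjusted p = 0.00287), from 6.69, 6.69 and 6.61 in cntrl to 7.44, 7.39 and 7.49 in sirnaAGO2. E2F3, an activator, rose with both, by 0.32 ± 0.08 with the mimic and by 0.40 ± 0.08 with silencing, and E2F7, a repressor, fell by 0.24 ± 0.07 with the mimic. These comparisons share the cntrl arrays.

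Of the 26 replication licensing and fork genes, which act before mitosis, 6 fell with the mimic and none rose, and 21 of the 26 had lower means, where 11.0% of all genes fell. Without mimic145 replicate 3, 3 fell, none rose and 17 had lower means. The helicase subunits MCM2, MCM3 and MCM6 were at -0.50 ± 0.09, -0.54 ± 0.12 and -0.69 ± 0.17, and GMNN, geminin, the licensing inhibitor, at -0.47 ± 0.10. The MCM6 pairs differed by -0.34, -0.53 and -1.22, those of MCM3 by -0.35, -0.39 and -0.89, and those of GMNN by -0.25, -0.38 and -0.79, each lowest in the pair with mimic145 replicate 3. Without that array MCM2 was at -0.51, MCM3 at -0.44 and GMNN at -0.34, all called, and MCM6 was at -0.53 (adjusted p = 0.0715). MCM2 was called lower in silenced cells too, at -0.42 ± 0.09, and GMNN was higher in sirnaAGO2+mimic145 than in mimic145 by 0.56 ± 0.10. Of the 10 G1/S cyclins and kinases, CDK6, CCNE1 and CDC25A fell with the mimic, with differences of -0.60 ± 0.09, -0.33 ± 0.06 and -0.56 ± 0.14, and CCND1, cyclin D1, rose by 0.38 ± 0.06. CDK6 and CCNE1 were called lower in silenced cells too, at -0.41 ± 0.09 and -0.42 ± 0.06, and CCND1 was lower in sirnaAGO2+mimic145 than in mimic145, at -0.31 ± 0.06.

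Of the 6 CDK inhibitors, CDKN2D and CDKN1A rose with the mimic, by 0.40 ± 0.10 and 0.32 ± 0.09, and CDKN1A was lower in sirnaAGO2+mimic145 than in mimic145, at -0.44 ± 0.09. CDKN1B, p27, was lower with silencing, at -0.33 ± 0.06, and higher with the mimic in silenced cells, at 0.26 ± 0.06. Of the 10 centrosome duplication genes, TUBG1, gamma-tubulin, rose with the mimic by 0.23 ± 0.06. Without mimic145 replicate 3, LIN37, E2F3, E2F7, CDC25A, CDKN2D, CDKN1A and TUBG1 were also no longer called with the mimic, with adjusted p between 0.0568 and 0.104, and each kept its direction. In the same fit 1 other CDK inhibitor, 1 other centrosome gene and 1 mitotic cyclin or CDK1 regulator were called higher with the mimic. Of the further kinetochore and centromere proteins, 3 were called higher, where 1 was with all 12 arrays. CDC26, CCND1 and CDKN1A were no longer called in that fit in sirnaAGO2+mimic145 relative to mimic145. E2F3 and CDKN1B were no longer called with silencing, nor was CDKN1B with the mimic in silenced cells.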

How the data were processed

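RNA of MDA-MB-231 cells was hybridised to 12 single-colour Agilent exon arrays. The authors deposited processed intensities from Feature Extraction 10.7.3.1, background-corrected within each array and not scaled between arrays. The authors' table of log2 values, quantile normalized with a floor of 1, served as an alternative. Here spots that were neither controls nor outliers were floored at 1, quantile normalized, log2 transformed and averaged per probe. Probes took gene symbols from RefSeq transcript identifiers (GRCh38.p14), which matched 209671 of 233164 probes. A probe counted if it was well above background on the 3 arrays of any group, which left 142976, and a gene was the mean of its counted probes.

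The 4 groups, with replicates as a block after the paired test of the study's methods, were fitted in limma 3.58.1 (R 4.3.3), with two-sided p-values adjusted by Benjamini-Hochberg over 18262 genes. The labels name biological triplicates. Across genes, deviations from group means correlated at 0.14 to 0.58 in the 18 pairs of arrays that share a number, and at -0.50 to 0.20 otherwise. The deviations cancel within each group, so these ranges are not independent. Some pairs that share a number also share a slide, so slide and pairing cannot be told apart there. The labels do not say whether a number marks the same culture in every group. The numbers were taken to pair the samples. Precision is limited by the number of arrays. The scripts were tested on simulated data. Alternatives covered scaling, background, probe filter and summary, blocks, trend, the methods' t-test, thresholds and leaving out replicates or arrays.

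All 50 genes may be named. Values on every array are given for called genes and for the largest difference in either direction of each comparison. Each further list gives up to 4 called genes with the mimic and up to 2 in each other comparison, by adjusted p, apart from 1 result that is not reported here. The 50 genes and the lists were chosen with earlier results of these data known.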

Additional observations from a re-analysis of the deposited data

How the results depend on the processing

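The count of the 50 genes called higher with the mimic in unsilenced cells, 6, depended on the processing. It was 11 with scaling to the 75th percentile, and 10 with normexp background correction, with probes well above background on all arrays, or with an intensity trend in eBayes. Over all genes, 3905 were called with scaling to the 75th percentile, 58.5% of them higher, and 4834 with normexp, 52.4% of them higher. The main fit called 4119, 51.3% of them higher. The count of the 50 genes was 1 without the replicate block or at an adjusted p under 0.01. It was 0 with only the arrays of the compared groups, with a change over 0.5 also required, and by the methods' t-test after Benjamini-Hochberg adjustment, where that test gave 2 at an unadjusted p of at most 0.05. Leaving out 1 replicate gave 0 to 5 and leaving out 1 array 1 to 11. With the mimic in silenced cells, 0 became 1 with normexp, 4 by the unadjusted t-test, and 1 without sirnaAGO2+mimic145 replicate 1 or mimic145 replicate 3, a range of 0 to 1. With silencing, 0 became 1 with normexp or an intensity trend, 2 with probes well above background on all arrays, 19 by the unadjusted t-test and 1 without mimic145 replicate 3. With silencing in the presence of the mimic it became 2 by the unadjusted t-test and 1 without mimic145 replicate 3, and for the difference of the mimic effects 4 by the unadjusted t-test. The cause of these changes was not tested. The fit without the replicate block gave the same count of the 50 genes, 0, in each of these 4 comparisons.

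In the 25 alternatives that give a difference, the 6 called genes stayed higher with the mimic in unsilenced cells, but their calls did not all hold. PTTG1 was called in 21 of the 25, KIF14 and SPC25 in 17, CENPA in 16, AURKA in 15 and CDC20 in 10. CENPI, the largest positive difference of the mimic effects, ranged from -0.044 to 0.20 with 1 replicate left out, below 0 without replicate 3, and was -0.042 without mimic145 replicate 3. The median of the 50 genes was 0.12 to 0.26 for silencing and -0.27 to -0.09 for the difference of the mimic effects. It was -0.01 to 0.26 for the mimic in unsilenced cells, -0.12 to -0.02 for it in silenced cells and -0.08 to 0.11 for silencing with the mimic.

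Of the 26 calls with the mimic in unsilenced cells that the naming rule took from the other lists, 12 held with any 1 array left out and 14 held without mimic145 replicate 3. Of the 5 calls with the mimic in silenced cells and the 7 with silencing in the presence of the mimic, 0 held with any 1 array left out, and of the 4 with silencing, 1 did.

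Over all genes, the called counts were 4119 for the mimic in unsilenced cells, with 1991 without the block and 1214 without replicate 1, and 1328 in silenced cells, with 78 without the block and 2399 with scaling to the 75th percentile. That scaling raised the share of higher genes among the latter from 58.4% to 80.1%. The counts for silencing were 471, or 48 without the block, and with the mimic 786, or 98. For the difference of the mimic effects, 2 genes were called, or 292 with probes well above background on all arrays.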
